A study of Mus musculus with 36 samples.

Results

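The autophagy machinery described here is a set of 38 mouse genes, taken by symbol as the core autophagy genes and autophagy receptors, among 53379 genes counted in both deposited tables. The members fall into 6 role groups. They are the 5 genes of the ULK initiation complex and 5 genes of class III PI3-kinase complexes. Another 7 belong to the ATG9, lipid transfer and WIPI step and 11 to the ubiquitin-like conjugation step. The rest are the 5 genes of the ATG8 family and 5 receptors.

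Autophagy encloses cytoplasmic cargo in a double membrane that fuses with the lysosome. A ULK kinase complex starts the membrane, a PI3-kinase complex marks it with lipid, ATG9 vesicles and lipid transfer proteins extend it, a pair of conjugation reactions attaches ATG8 proteins to it, and receptors tie cargo to ATG8. TFE3, TFEB, TFEC and MITF are related transcription factors that bind E-box elements in promoters of lysosomal and autophagy genes, and the fusion studied here joins ASPSCR1 to TFE3.

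All samples were formalin-fixed, paraffin-embedded tissue, measured by total RNA-seq. The adult fusion animals were 6 mice with Sglt2-Cre, which acts in proximal tubule epithelium, and a single ASPSCR1-TFE3 LSL allele (LSL/+) that is expressed once Cre has acted. They gave 11 kidney tumor libraries from all 6 mice, 4 retro-orbital tumors (mice 2, 3, 5 and 6), 3 brain tumors (mice 1, 2 and 4) and 4 samples of non-transformed kidney (mice 1, 3, 4 and 5), and 3 Sglt2-Cre mice gave 6 control kidney libraries. The fetal animals were 5 fetuses with dysmorphic kidneys that carried Pax8-Cre, which acts in the developing nephric epithelium, with ASPSCR1-TFE3 LSL/+, and 3 fetuses that the sample labels give as Pax8-Cre, whereas the series description allows either allele alone. Every animal in the labels thus carried a Cre, and the labels used here give no ages. Each fusion mouse gave 2 kidney tumor libraries except mouse 5, which gave 1, and the libraries of 1 animal and group were summed, so that the animal was the replicate. That libraries share an animal was read from their titles.

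Total counts ran from 80205573 to 121415057 per library. Levels are in CPM, the counts of a gene per 1000000 counts of its sample after trimmed-mean (TMM) scaling over all animals. The 8 proximal tubule markers summed to 11200 to 12300 CPM in control kidneys and 11200 to 14300 in non-transformed kidneys, and in kidney tumors to 7700 and 7630 in mice 4 and 5, 2440 in mouse 1 and 633 to 642 in mice 2, 3 and 6. The 7 neuron and glia markers reached 1490 CPM in the brain tumor of mouse 2, against 122 and 411 in the other brain tumors and at most 96.4 in kidney tumors. The 7 skeletal muscle markers summed to 34500 to 90800 CPM in dysmorphic and 12800 to 15400 in control fetal kidneys, and to at most 1380 in any adult sample, and the proximal tubule markers to 43.5 to 834 and to 1110 to 1350. Sex, read from Y-linked genes, was uneven, since mice 1 and 5, dysmorphic fetuses 1 to 3 and control fetus 1 were male and the adult controls were all female.

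The TFE-type E-box CACGTG was searched for on both strands in RefSeq promoter windows of 300 bases (250 before and 50 after the annotated start, build GRCm38.p6). Windows were found for 32 of the 38 members, and 4 of those (12.5%) held CACGTG, against 8.09% of 27025 genes. They were Atg3, Atg5, Atg7 and Atg14, each given as the stretch around the match because they are the members with the element, with CACGTG in capitals, written 5′ to 3′ on the strand of its gene.
Atg3 (chr16:45158708-45158767, plus strand): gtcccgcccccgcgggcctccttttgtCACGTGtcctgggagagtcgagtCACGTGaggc
Atg5 (chr10:44268279-44268338, plus strand): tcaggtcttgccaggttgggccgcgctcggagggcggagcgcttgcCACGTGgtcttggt
Atg7 (chr6:114670937-114670996, plus strand): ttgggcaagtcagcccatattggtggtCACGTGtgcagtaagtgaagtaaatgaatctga
Atg14 (chr14:47568430-47568489, minus strand): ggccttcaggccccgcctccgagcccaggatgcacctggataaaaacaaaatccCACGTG

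Atg3 held 2 copies, and its window alone among the 32 also held the longer palindrome TCACGTGA (1.12% of genes). TCACGTG, which overlaps CACGTG, was in 3 of the 32 windows (Atg3, Atg7 and Atg14) and in 4.29% of genes. TCATGTGA was in none of the 32, and in 1.15% of genes. The window of Atg7 belongs to a start inside the gene. In the GENCODE M21 annotation that start is 27999 bases downstream of the first Atg7 transcript start. It is 9066 bases from the nearest transcript start and lies in no exon. The windows of Optn and Sqstm1, which with Atg7 had the largest folds of the called members in kidney tumors, are shown for their 250 bases before the start, and held no CACGTG.
Optn (chr2:5064118-5064367, minus strand): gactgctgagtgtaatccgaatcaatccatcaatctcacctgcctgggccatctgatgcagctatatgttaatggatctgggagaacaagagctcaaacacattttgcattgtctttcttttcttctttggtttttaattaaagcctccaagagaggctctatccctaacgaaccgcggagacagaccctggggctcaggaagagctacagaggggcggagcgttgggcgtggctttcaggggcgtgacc
Sqstm1 (chr11:50210821-50211070, minus strand): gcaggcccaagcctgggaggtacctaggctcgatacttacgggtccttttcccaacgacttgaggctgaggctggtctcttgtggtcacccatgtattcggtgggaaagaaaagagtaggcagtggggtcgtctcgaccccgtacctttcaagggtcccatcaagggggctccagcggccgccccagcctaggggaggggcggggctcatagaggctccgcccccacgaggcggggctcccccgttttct

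A match states only that these letters are in the window, and no match says nothing of sites elsewhere. Of the 8 members that were higher in kidney tumors than in control kidneys, described next, the Atg7 window was the one with the element.

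Kidney tumors were compared with control kidneys to ask what the fusion changes in adult kidney. Optn, Sqstm1, Atg7, Uvrag, Gabarapl2, Ulk1, Vmp1 and Gabarap rose, between 1.65-fold and 16.5-fold, and Nbr1, Wipi2, Atg4c and Tax1bp1 fell, between 1.31-fold and 1.49-fold, with at least 1 called gene in each of the 6 role groups. These 12 of 38 members (31.6%) had an adjusted p under 0.05, against 19.0% of all 23578 genes tested. The 8 that rose were 21.1% of the members against 12.5% of all genes, and the 4 that fell were 10.5% against 6.51%. The median log2 difference was -0.04 over the members and 0.05 over all genes tested, and the kidney tumors lay wholly above or wholly below the control kidneys for 16 members (29.8% of all genes did so). Differences are log2 fold changes from edgeR's quasi-likelihood test, given with a standard error (SE), and adjusted p is the Benjamini-Hochberg value over all genes tested. A rise, fall or difference given as a plain number is in log2 units, and a multiple is written as a fold. In these bulk samples, more or fewer cells of a type and more or less RNA per cell cannot be told apart.

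**Figure D1:**
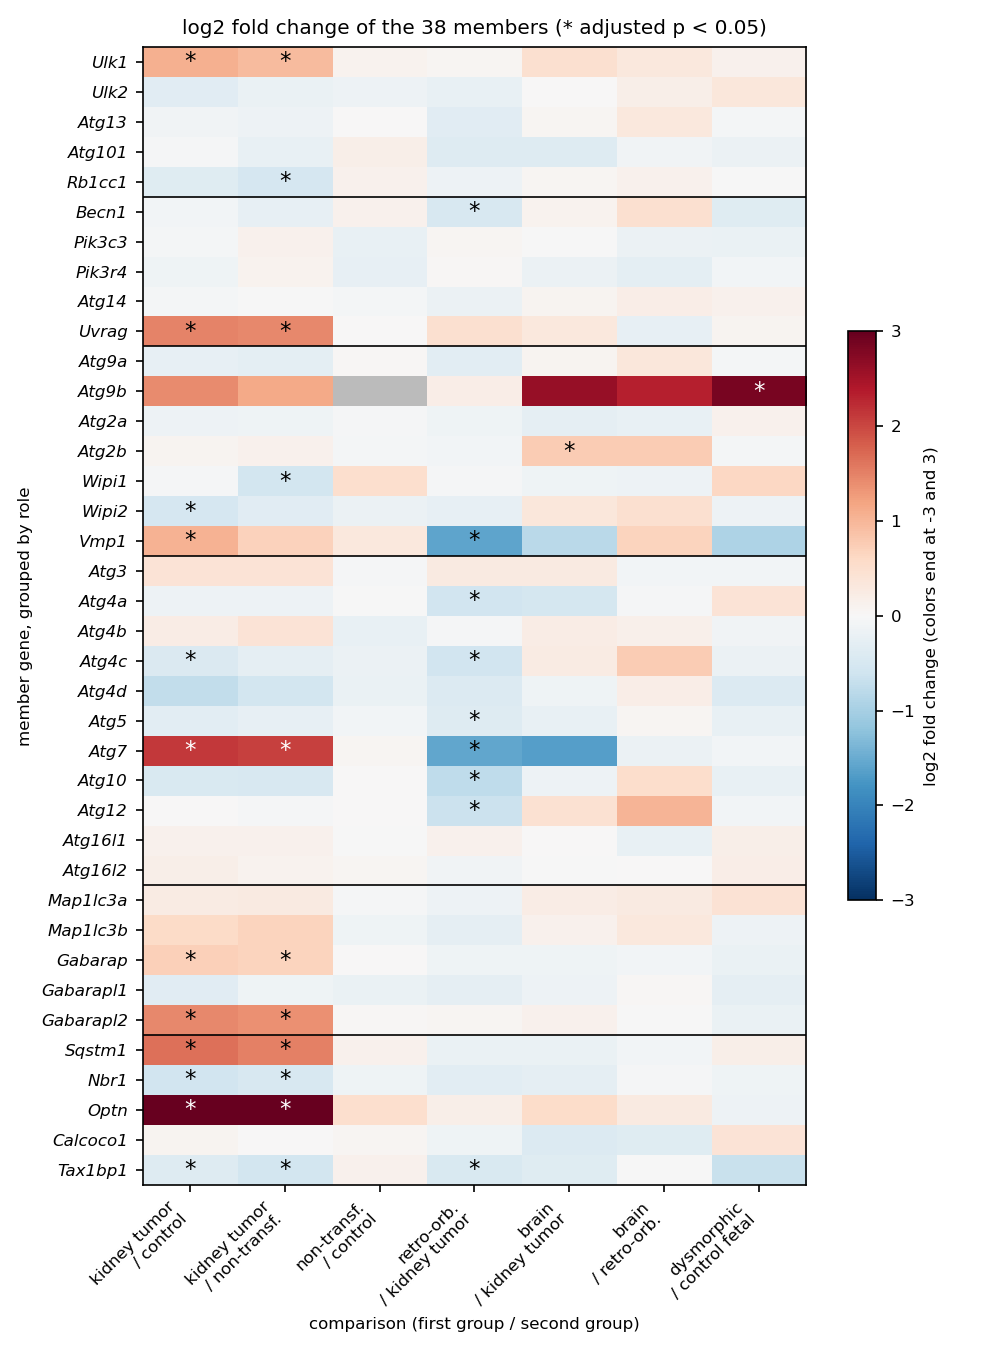
Log2 difference of each of the 38 members (rows, ordered by role) in each comparison (columns), with an asterisk where adjusted p was under 0.05. Red is higher and blue lower in the first group named, the colors end at 3 either way (Optn lies beyond), and gray marks Atg9b where it was not tested. Single members of each role stand out in the kidney tumor columns, and in the retro-orbital column 6 of the 11 conjugation genes carry an asterisk, all of them lower.

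Among the receptors, which bind ubiquitinated or other cargo and ATG8, 2 members rose and 2 fell. Optn, optineurin, a receptor for damaged mitochondria and bacteria (chr2:5020642-5064051, minus strand), was at 16.4, 19.2 and 17.9 CPM in the control mice and at 125 to 422 CPM in the kidney tumors (median 297, n = 6). The groups were far apart, the lowest tumor (mouse 5) being well above the highest control. The log2 difference was 4.04 (SE 0.43, adjusted p = 0.000584), or 16.5-fold. Sqstm1, which encodes the receptor p62 (chr11:50199366-50210827, minus strand), was at 160, 173 and 155 CPM in controls and at 321.8 to 712 CPM in tumors (median 503). All tumors were above all controls, and the log2 difference was 1.66 (SE 0.32, adjusted p = 0.00925).

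Nbr1, a receptor with a domain structure like that of p62, was at 251, 275 and 275 CPM in controls and at 150 to 190 CPM in tumors (median 186), with no overlap. It fell by 0.57 in log2 units (SE 0.12, adjusted p = 0.0118). Tax1bp1, another ubiquitin-binding receptor, was at 760, 724 and 743 CPM in controls and at 491 to 629 CPM in tumors (median 551), also without overlap. It fell by 0.39 in log2 units (SE 0.11, adjusted p = 0.0354). Calcoco1, a receptor of the endoplasmic reticulum and Golgi, had a log2 difference of 0.09 and was not called. The ratio of Sqstm1 to Nbr1 CPM was 0.61 ± 0.0402 (SD, n = 3) in controls and 2.95 ± 1.23 (SD, n = 6) in tumors, and that of Optn to Tax1bp1 was 0.0241 ± 0.00249 and 0.534 ± 0.241, which follows from the levels of the 4 genes and was not tested separately.

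**Figure D2:**
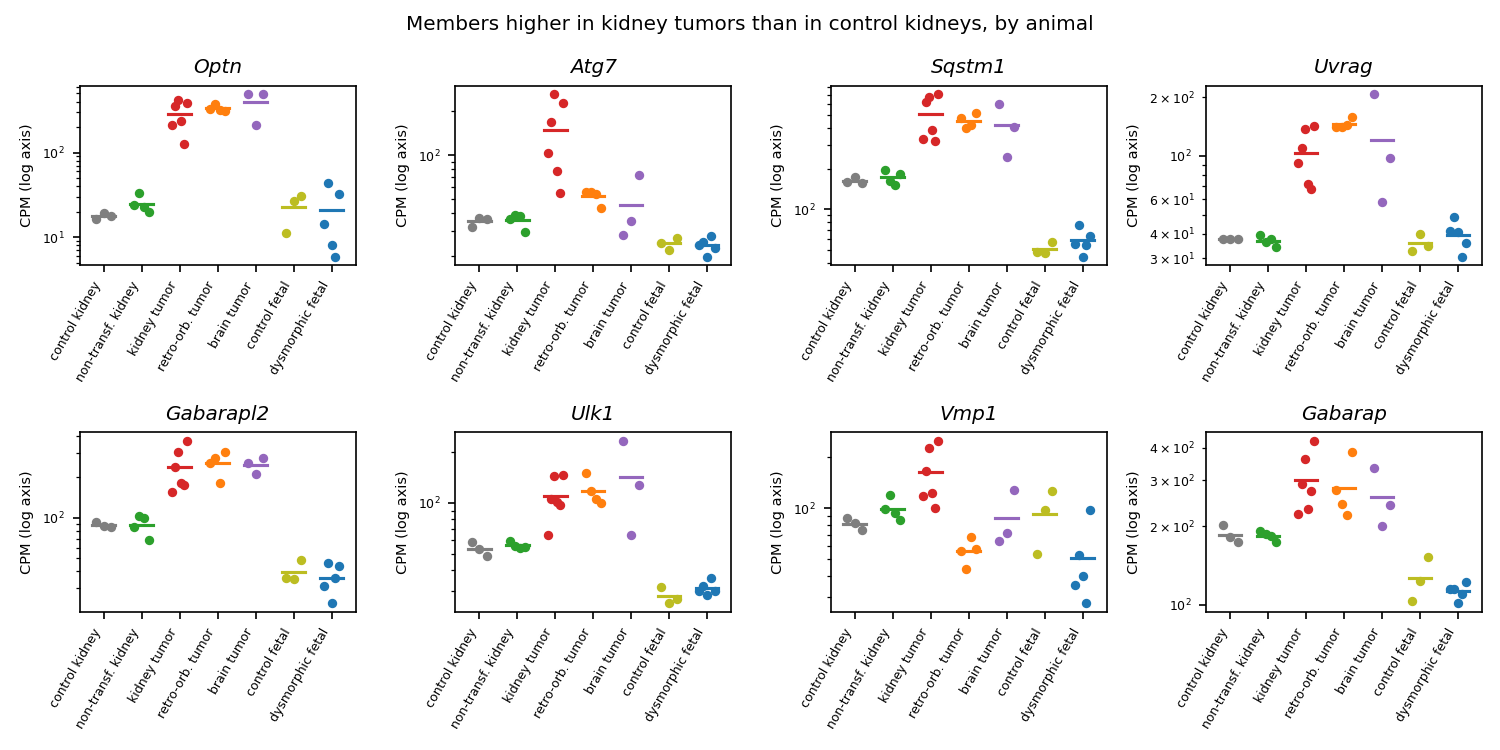
CPM on a log axis of the 8 members that were higher in kidney tumors than in control kidneys, in all 7 groups, where each point is an animal and each bar the group mean. The kidney tumor points lie above all control kidney points in every panel, and Optn has the widest gap (16.4 to 19.2 against 125 to 422 CPM).

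In the ATG8 family, the ubiquitin-like proteins that coat the autophagosome, the GABARAP branch held both calls. Gabarapl2 was at 92.7, 86.5 and 85.5 CPM in controls and at 155 to 371 CPM in tumors (median 209), and rose by 1.45 (SE 0.30, adjusted p = 0.0131). Gabarap was at 201, 181 and 173 CPM in controls and at 222 to 425 CPM in tumors (median 281), and rose by 0.72 (SE 0.22, adjusted p = 0.0497). Neither gene's groups overlapped. Map1lc3b, the LC3 gene most used as an autophagosome marker, had a log2 difference of 0.57 (adjusted p = 0.163), Gabarapl1 of -0.33 (adjusted p = 0.155) and Map1lc3a of 0.25, and none of these was called in the edgeR fit of these groups.

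Per kilobase of exon, which allows genes to be compared, Gabarapl1 was the most abundant of all 38 members in control kidneys (mean 174 CPM per kb) and in non-transformed kidneys (147). Gabarap was first in kidney tumors (163), and in retro-orbital tumors (152), brain tumors (140) and both fetal groups. The ratio of Gabarapl2 to Gabarapl1 CPM was 0.252 ± 0.00898 (SD, n = 3) in control kidneys and 0.852 ± 0.222 (SD, n = 6) in kidney tumors. Optn went from 4.75 CPM per kb in control kidneys to 77 in kidney tumors, where it was sixth among the members. In the fetal groups, whose counts came in a separate table but were scaled together with the adult ones here, Gabarapl1 was at 14.2 CPM per kb in controls and 12.1 in dysmorphic kidneys.

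**Figure D3:**
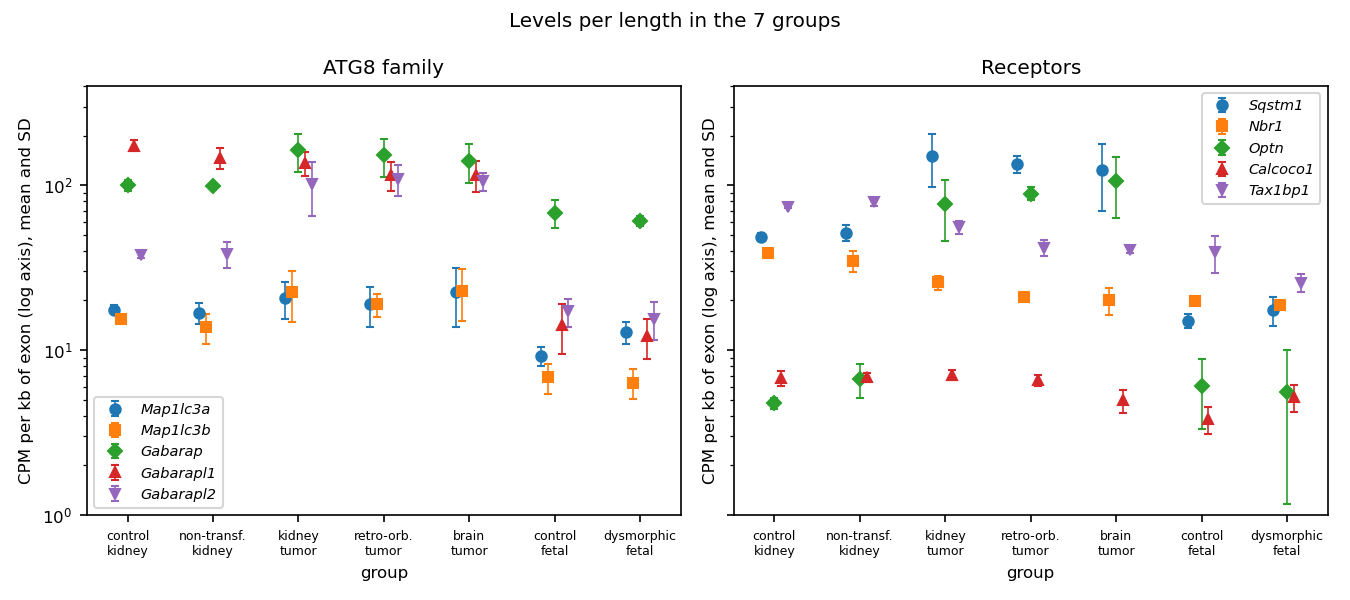
Mean CPM per kilobase of exon, on a log axis, of the ATG8 family and of the receptors in each of the 7 groups. Gabarapl1 is on top of its family in control and non-transformed kidneys and Gabarap in the tumors and fetal kidneys, while Optn climbs from 4.75 in control kidneys to 77 in kidney tumors.

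In the conjugation step, Atg7, the E1-like enzyme that activates both ATG12 and the ATG8 proteins (chr6:114643097-114860614, plus strand), was at 31.7, 37.0 and 36.4 CPM in controls and at 54.8 to 263 CPM in tumors (median 136). The groups did not overlap and the tumors were widely spread. The log2 difference was 2.12 (SE 0.52, adjusted p = 0.0239), or 4.35-fold. Atg4c, a cysteine protease that processes ATG8 proteins, was at 64.5, 61.0 and 59.8 CPM in controls and at 39.9 to 51.4 CPM in tumors (median 44.5), and fell by 0.44 in log2 units without overlap (SE 0.13, adjusted p = 0.0394). The other 9 conjugation genes were not called in the edgeR fit of these groups, among them Atg3, the E2-like enzyme whose promoter window held 2 E-boxes, at 0.41 (adjusted p = 0.108), and Atg5, which is joined to ATG12, at -0.31 (adjusted p = 0.0955).

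At initiation and nucleation, Ulk1, the kinase of the ULK complex, was at 58.3, 53.3 and 48.3 CPM in controls and at 64.4 to 146 CPM in tumors (median 104). Its lowest tumor, that of mouse 1, was close above the highest control, and the log2 difference was 1.06 (SE 0.25, adjusted p = 0.0214). The other 4 genes of that complex were not called in the edgeR fit of these groups. Uvrag, a subunit of the PI3-kinase complex that acts in endosome and autophagosome maturation, was at 37.4 CPM in each of the 3 controls and at 67.6 to 143 CPM in tumors (median 101). The groups were apart, with a log2 difference of 1.49 (SE 0.28, adjusted p = 0.00845). The other 4 genes of its role group, Becn1 and Pik3c3 included, were not called.

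In the ATG9, lipid transfer and WIPI step, Vmp1, a membrane protein of the endoplasmic reticulum needed to form autophagosomes, was at 87.2, 81.9 and 74.7 CPM in controls and at 100 to 251 CPM in tumors (median 144), and rose by 1.04 (SE 0.32, adjusted p = 0.0486). Wipi2, which reads the lipid mark and recruits the conjugation machinery, was at 86.4, 99.0 and 102 CPM in controls and at 56.1 to 74.3 CPM in tumors (median 70.8), and fell by 0.50 in log2 units (SE 0.13, adjusted p = 0.0314). Both were without overlap. Atg9b was near the detection limit in adult tissue, with 0 to 49 counts per animal and at most 0.33 CPM in any adult sample other than the brain tumor of mouse 2, where it was at 1.95.

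The rises were not even among the kidney tumors. For all 8 higher members, mice 3 and 6 had the highest values and mouse 2 the next, and mice 2, 3 and 6 were also those with the lowest sums of proximal tubule markers (633 to 642 CPM). Mouse 5, with 7630 CPM of these markers, had the lowest Optn, Atg7, Sqstm1, Uvrag and Vmp1. Mouse 1, with 2440 CPM, had the lowest Ulk1, Gabarap and Gabarapl2. It was below mouse 4, with 7700 CPM, for these and for Optn, Sqstm1 and Vmp1, and above it for Atg7 and Uvrag. The part of these markers in the rises was not tested. Without the tumors of mice 4 and 5, in a fit chosen after seeing the data, 14 members were called, and 11 of them were among the 12, while the share of all genes called went from 19.0% to 34.1%. The 5 proliferation markers summed to 340 to 536 CPM in kidney tumors and 49.3 to 71.7 in control kidneys. Distal nephron and collecting duct markers summed to 20.3 to 5820 and 5940 to 6730 CPM, and macrophage markers to 149 to 656 and 161 to 190 CPM. The part of these lists in the differences was not tested. The same mouse's libraries also differed: the higher of the pair was 1.25 to 1.43 times the lower for Optn and 1.15 to 2.27 times for Atg7, against at most 1.08 times for Optn between the control libraries of a mouse.

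**Figure D4:**
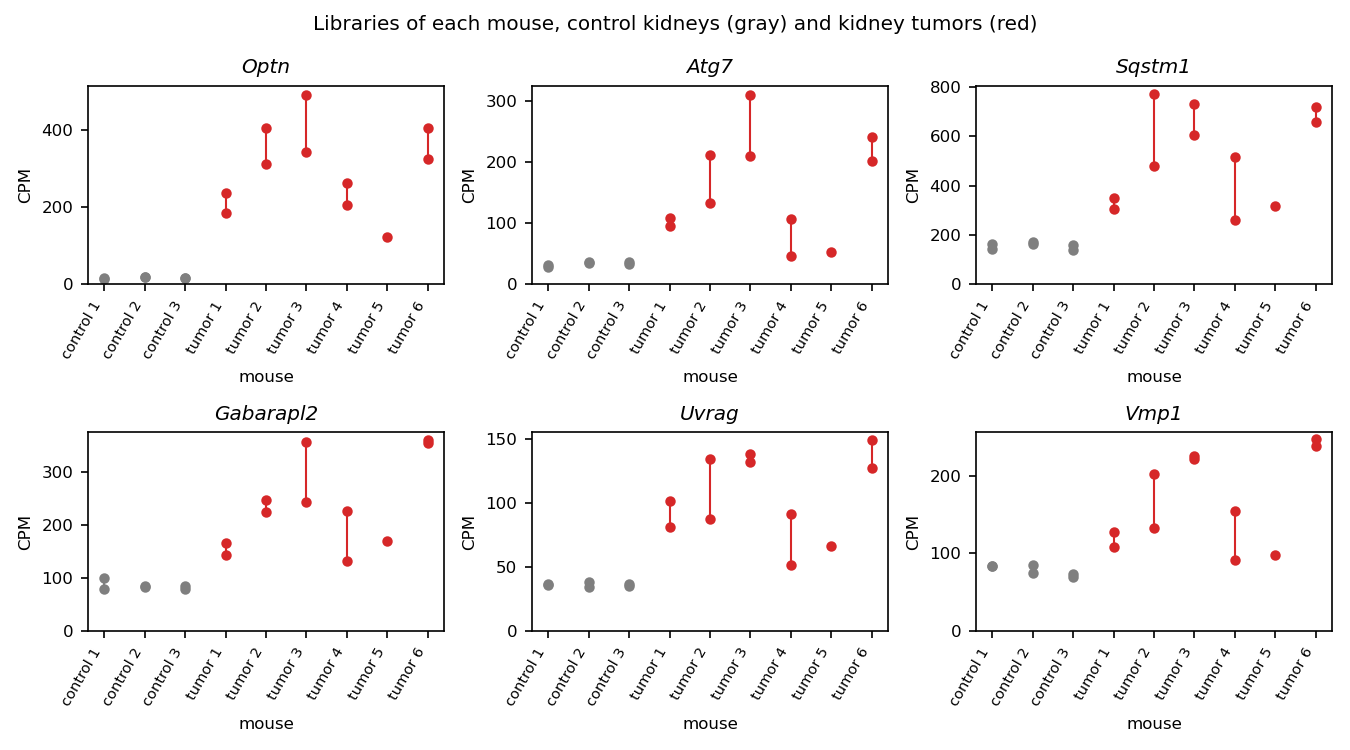
CPM in each kidney tumor and control kidney library, grouped by mouse, for higher members of the set. For Atg7 the pair of mouse 4 has the largest ratio, 2.27, with 46.9 and 107 CPM.

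Calls leaned on the small groups. Optn and Uvrag kept an adjusted p under 0.05 whichever mouse was left out, whereas 5, 3 and 2 members were called without control mouse 1, 2 or 3 and 7 without the tumors of mouse 2 or of mouse 3. The share of all genes called fell as well, from 19.0% to 8.55%, 4.78% and 4.96% without control mouse 1, 2 or 3 and to 14.5% and 13.3% without the tumors of mouse 2 or of mouse 3. Without control mouse 3 the adjusted p was 0.0523 for Sqstm1, 0.0656 for Gabarapl2, 0.0941 for Atg7, 0.0984 for Ulk1, 0.161 for Vmp1, 0.164 for Gabarap, 0.0693 for Nbr1, 0.137 for Tax1bp1, 0.126 for Atg4c and 0.152 for Wipi2. With relative log expression scaling in place of TMM, Vmp1 and Gabarap were not called. Vmp1, Gabarap, Tax1bp1 and Atg4c were not called with no filter on low counts, nor were Wipi2 and Atg4c with all groups in 1 fit. Some fits called further members. Atg4d was called lower with upper quartile factors, Atg4d and Atg5 with all groups in 1 fit, Atg4d, Atg5 and Ulk2 by DESeq2, Rb1cc1 with sex as a covariate, and Atg4d, Atg5, Ulk2 and Rb1cc1 by limma-voom. Atg3 and Map1lc3b were called higher by limma-voom, and without the tumors of mice 4 and 5, where Atg4d was also called lower. The share of all genes called in these fits was 19.4% (upper quartile), 21.5% (all groups), 25.4% (DESeq2), 25.9% (sex) and 35.4% (limma-voom). Of the 38 members, 15 share exon bases with another gene, and 14 of them with a gene on the opposite strand (Sqstm1 with Mrnip over 580 bases, Uvrag with Gm45187 over 1589, Optn with 4930551O13Rik over 73). Vmp1 shares 92 bases with Mir21a on its own strand. How the counts treated strand is not given in the sources used here, so these values are uncertain to that extent.

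The comparison of kidney tumors with the non-transformed kidney of fusion mice asks the same within mice that carry the fusion, and shares the 6 tumors with the comparison above. Optn, Atg7, Sqstm1, Uvrag, Gabarapl2, Ulk1 and Gabarap rose, and Nbr1, Tax1bp1, Rb1cc1 and Wipi1 fell. These were 11 of 38 members (28.9%) against 17.1% of 21930 genes tested, with 7 higher (18.4% against 12.1%) and 4 lower (10.5% against 5.02%). The median was 0.0 over the members and -0.02 over all genes, and 11 members had groups that did not overlap (17.6% of all genes).

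Optn was at 24.0, 33.2, 22.8 and 19.9 CPM in the non-transformed kidneys of mice 1, 3, 4 and 5, and was higher in the tumors by 3.5 (SE 0.37, adjusted p = 0.000295). Sqstm1 was at 194, 163, 152 and 182 CPM, and its log2 difference was 1.52 (SE 0.27, adjusted p = 0.00494). Uvrag was at 39.2, 36.3, 37.5 and 34.3 CPM, with a log2 difference of 1.45 (SE 0.23, adjusted p = 0.00277). All 3 were below every kidney tumor.

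Atg7 was at 36.0, 38.5, 37.8 and 29.3 CPM in non-transformed kidneys, against which the tumors were higher by 2.04 (SE 0.43, adjusted p = 0.0122). Gabarapl2 was at 84.8, 103, 100 and 67.8 CPM, with a log2 difference of 1.38 (SE 0.26, adjusted p = 0.00755). Gabarap was at 191, 186, 183 and 174 CPM and Ulk1 at 59.6, 55.2, 54.0 and 54.6, with log2 differences of 0.67 (SE 0.18, adjusted p = 0.0302) and 0.94 (SE 0.21, adjusted p = 0.0139). None of the 4 overlapped the tumors. Vmp1, at 98.6, 120, 94.1 and 85.1 CPM, was not called here (log2 difference 0.69, adjusted p = 0.0988).

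The 4 members that fell were each lower by under 1 log2 unit. Tax1bp1 was at 777, 849, 798 and 743 CPM and fell by 0.54 (SE 0.10, adjusted p = 0.00641), and Nbr1 was at 221, 263, 274 and 201 CPM and fell by 0.47 (SE 0.12, adjusted p = 0.0257). Rb1cc1, the scaffold FIP200 of the ULK complex, was at 376, 415, 378 and 351 CPM against 217.95 to 330 in tumors (median 274), and fell by 0.51 (SE 0.14, adjusted p = 0.0328). Wipi1, a reader of the same lipid mark as Wipi2, was at 43.6, 55, 46.2 and 34.8 CPM against 24.1 to 38.5 (median 30.8), and fell by 0.56 (SE 0.17, adjusted p = 0.0488). Only Wipi1 overlapped, and 4 of its 6 tumors were below every non-transformed kidney.

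With the mouse as a block, over the 4 mice that gave both tissues, Optn (3.17, SE 0.23, adjusted p = 0.00679), Gabarapl2 (1.12, adjusted p = 0.0327) and Uvrag (1.22, adjusted p = 0.0444) kept their calls. The other 8 did not, with adjusted p of 0.0791 for Sqstm1, 0.0888 for Atg7, 0.136 for Ulk1, 0.169 for Gabarap, 0.143 for Tax1bp1, 0.173 for Nbr1, 0.209 for Rb1cc1 and 0.148 for Wipi1. All 11 kept their direction. The block called 4.12% of all genes. Leaving out mouse 3 left 4 members called, and mouse 1 or mouse 4 left 6, in fits that called 5.59%, 6.4% and 12.6% of all genes. Without mouse 3 the adjusted p was 0.0814 for Ulk1, 0.06 for Atg7, 0.139 for Gabarap, 0.158 for Rb1cc1, 0.239 for Wipi1, 0.155 for Nbr1 and 0.064 for Tax1bp1. With the tumors of mice 4 and 5 left out, 15 members were called, all 11 among them, while the share of all genes called went from 17.1% to 33.4%. Atg3, Atg4b and Map1lc3b were also called higher with all groups in 1 fit (19.3% of all genes) and by limma-voom (30.0%). Limma-voom also called Atg4d, Atg10 and Wipi2 lower, and sex as a covariate (15.0%) called Atg10 lower. Atg4d was called lower without the tumors of mice 4 and 5 and without mouse 5 (17.0%).

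Non-transformed kidneys of fusion mice were compared with control kidneys to ask whether the machinery differed in kidney of fusion mice outside the tumors. No member was called among the 37 tested, where edgeR called 0.00952% of 21019 genes, and DESeq2 (2.43% of all genes) and limma-voom (0.024%) called none of them either. An unadjusted p under 0.05 was reached by 3 members, all higher in the non-transformed kidneys. They were Optn (0.51, SE 0.17, adjusted p = 0.303), Vmp1 (0.32, SE 0.12, adjusted p = 0.353) and Wipi1 (0.51, SE 0.21, adjusted p = 0.398). Optn was the one of these whose 4 non-transformed kidneys were all above the 3 controls. Gpnmb, a known TFE3 target, was at 111 to 462 CPM in the non-transformed kidneys, 1.60 to 2.51 in controls and 2940 to 7220 in kidney tumors. Whether this bears on the Optn level was not tested.

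Retro-orbital tumors were compared with kidney tumors to ask whether the machinery varied with tumor site. Here 9 members fell and none rose. These 9 (23.7%) stood against 17.7% of 22136 genes called, 8.26% higher and 9.45% lower. Of the members, 12 had an unadjusted p under 0.05 in this direction and none in the other, and DESeq2 and limma-voom also called none higher. The median was -0.2 over the members and -0.09 over all genes, and 5 members did not overlap (16.1% of all genes). Of the 9, 6 belonged to the conjugation step (6 of its 11 genes) and none to the ULK complex or the ATG8 family. Upper quartile scaling moved the median of all genes from -0.09 to 0.03 and left 6 members called.

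Vmp1 had the largest drop. It was at 56.1, 43.8, 67.5 and 57.8 CPM in the retro-orbital tumors of mice 2, 3, 5 and 6, below all 6 kidney tumors (100 to 251 CPM) and below the control kidneys as well. It fell by 1.58 (SE 0.29, adjusted p = 0.00624), or 2.98-fold, and was called under every alternative and with any mouse left out. Within mice 2, 3, 5 and 6, with the mouse as a block, it fell by 1.64 (SE 0.32, adjusted p = 0.0367).

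Atg7 was at 55.3, 55.2, 54.0 and 43.3 CPM in retro-orbital tumors, which was lower than in kidney tumors by 1.56 (SE 0.43, adjusted p = 0.0327). The tumor of mouse 5 in the kidney, at 54.8 CPM, lay among them, so the groups overlapped, and the retro-orbital tumors were above the control kidneys (31.7 to 37.0). Atg4c was at 29.7, 31.2, 30.6 and 31.4 CPM, without overlap, and fell by 0.58 (SE 0.11, adjusted p = 0.00768). Atg4a, a protease of the same family, was at 34.2, 44.2, 32.1 and 36.6 CPM against 48.7 to 66.9 in kidney tumors (median 51.3), and also fell by 0.58 without overlap (SE 0.13, adjusted p = 0.0155).

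Atg10, the E2-like enzyme for ATG12, was at 7.37, 9.84, 9.03 and 9.98 CPM against 11.6 to 20.7 in kidney tumors (median 13.9), and fell by 0.77 without overlap (SE 0.20, adjusted p = 0.0267). Atg12 was at 11.3, 9.12, 12.5 and 14.6 CPM against 12.3 to 23.3 (median 17.9), and Atg5 at 37.6, 38.3, 36.3 and 44.3 against 42.2 to 55.1 (median 50.3). Both overlapped, and they fell by 0.64 (SE 0.20, adjusted p = 0.0499) and by 0.38 (SE 0.11, adjusted p = 0.0432).

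Becn1, the regulatory subunit of the PI3-kinase complex, was at 57.7, 55.1, 64.2 and 63.6 CPM against 60.6 to 99.3 in kidney tumors (median 84.2), with the kidney tumor of mouse 1 among the retro-orbital values. It fell by 0.48 (SE 0.13, adjusted p = 0.0308). Tax1bp1 was at 374, 476, 391 and 427 CPM, below all kidney tumors, and fell by 0.45 (SE 0.11, adjusted p = 0.0176). The members that were high in kidney tumors were otherwise not called between the sites. Optn was at 327, 379, 318 and 313 CPM, with a log2 difference of 0.17, and Sqstm1 at 473, 397, 417 and 517, with -0.21. Uvrag (0.47), Gabarapl2 (0.06), Ulk1 (0.07) and Gabarap (-0.13) were likewise not called.

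**Figure D5:**
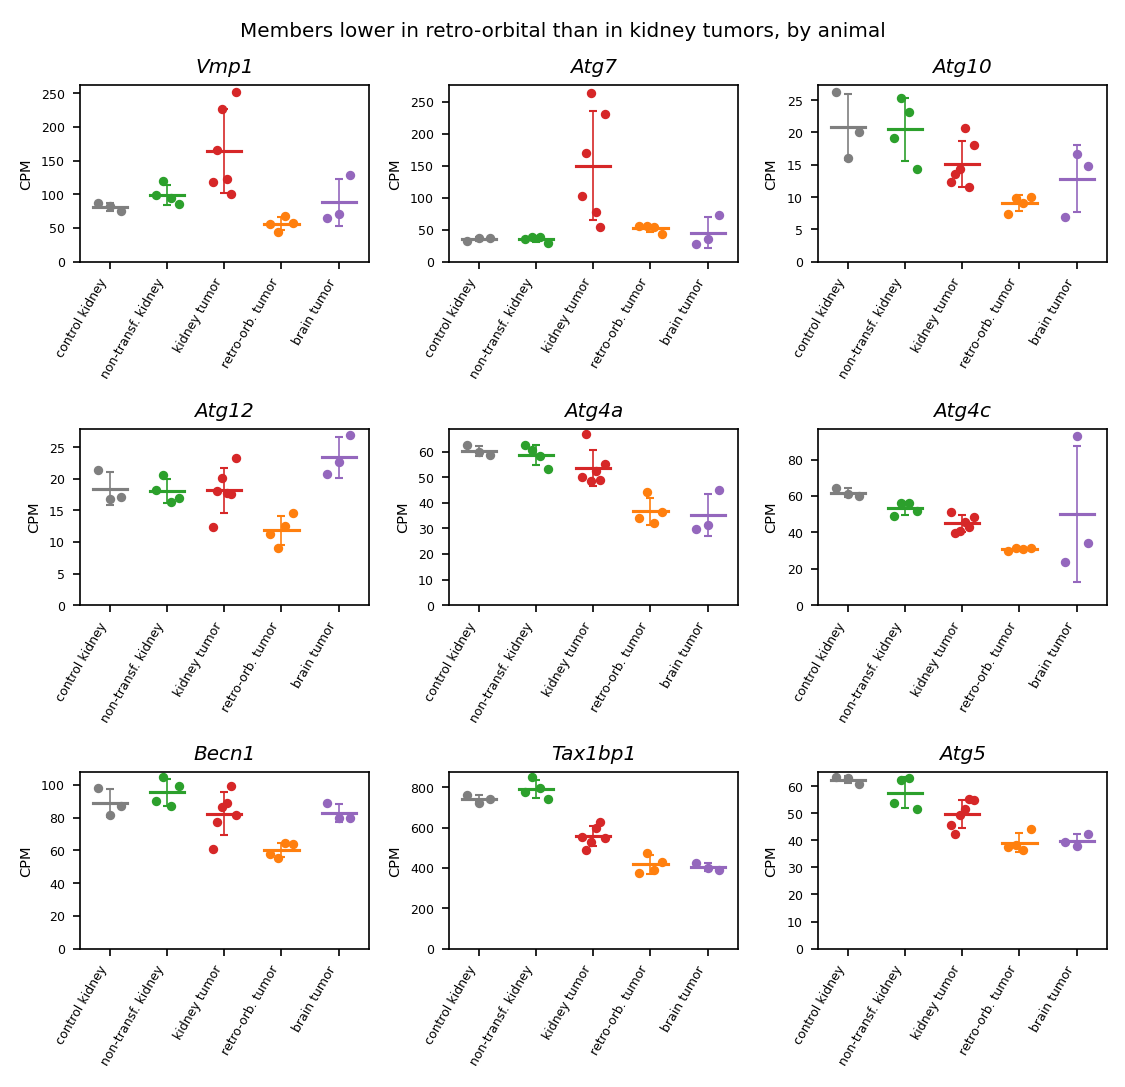
CPM, on a linear axis from 0, of the members that differed between tumor sites, with control and non-transformed kidneys beside the tumors. Points are animals, bars means and error bars the SD, and Vmp1 in retro-orbital tumors (43.8 to 67.5 CPM) lies below every kidney sample.

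With the mouse as a block, 3 of the 9 were called, which were Vmp1, Becn1 (adjusted p = 0.0469) and Atg12 (adjusted p = 0.0494), and 13.1% of 20462 genes were called. The others had adjusted p of 0.0553 (Atg4c), 0.0658 (Atg10), 0.0719 (Atg7), 0.0845 (Atg4a), 0.117 (Tax1bp1) and 0.128 (Atg5). Proximal tubule markers summed to 116 to 1050 CPM in retro-orbital and to 633 to 7700 in kidney tumors, and proliferation markers to 689 to 1170 and 340 to 536 CPM, and the part of neither in these differences was tested. Without the kidney tumors of mice 4 and 5, Vmp1 (-1.73), Atg7 (-1.85), Atg4a, Atg4c and Atg10 were called, with 16.4% of all genes. Vmp1 and Atg4c kept their calls with each mouse left out in turn, whereas 2 members were called without mouse 2 or mouse 6, 3 without mouse 5, 4 without mouse 3 and 5 without mouse 4. The share of all genes called was 8.06% and 7.92% without mice 2 and 6, 15.3% without mouse 5, 7.24% without mouse 3 and 14.9% without mouse 4. Without mouse 2 the adjusted p was 0.116 for Becn1, 0.0794 for Atg4a, 0.0946 for Atg5, 0.122 for Atg7, 0.104 for Atg10, 0.168 for Atg12 and 0.063 for Tax1bp1.

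Brain tumors differed from kidney tumors in 1 member by the same test, where 8.74% of 23391 genes were called, 4.54% higher and 4.2% lower. Atg2b, a lipid transfer protein that bridges the endoplasmic reticulum and the growing membrane, was at 208, 153 and 281 CPM in the brain tumors of mice 1, 2 and 4 and at 109 to 157 CPM in kidney tumors (median 133). The brain tumor of mouse 2, which had 1490 CPM of neuron and glia markers, lay among the kidney tumors. The log2 difference was 0.77 (SE 0.19, adjusted p = 0.0393). With the mouse as a block, where edgeR called no gene of 21827, it was 0.71 (adjusted p = 0.356). No single mouse could be left out without losing the call (adjusted p = 0.0628 to 0.127), in fits that called 1.26% to 6.36% of all genes. Leaving out only the brain tumor of mouse 2 kept it, whereas without the kidney tumors of mice 4 and 5 Atg2b was not called (adjusted p = 0.0707) and Atg7 was called lower (log2 difference -2.0, adjusted p = 0.0459). Atg2b shares 383 exon bases with Gskip on the opposite strand. In the fit of these groups no member was called lower and 5 had an unadjusted p under 0.05 in that direction. DESeq2 called Tax1bp1, Calcoco1 and Atg7 lower, limma-voom Tax1bp1, Calcoco1 and Atg4a, and edgeR with all groups in 1 fit Tax1bp1, Nbr1, Calcoco1, Atg7, Atg5 and Atg4a. DESeq2 (adjusted p = 0.0339) and the fit of all groups (adjusted p = 0.0204) also called Atg9b higher, and with the brain tumor of mouse 2 left out its log2 difference in the edgeR fit of these groups was 0.30 (adjusted p = 0.853). The share of all genes called was 19.3% by DESeq2, 16.8% by limma-voom and 26.0% with all groups in 1 fit.

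Atg7 was at 27.9, 34.9 and 72.4 CPM in brain tumors, so that mice 1 and 2 were within or below the range of control kidneys and mouse 4 was among the kidney tumors. The log2 difference was -1.65 (SE 0.56, adjusted p = 0.0952). Optn was at 490, 213 and 487 CPM in brain tumors, all above the non-transformed and control kidneys, and Sqstm1 at 605, 243 and 403. For Optn, Sqstm1, Uvrag and Ulk1 the lowest brain tumor was that of mouse 2, with its neuron and glia markers. Between brain and kidney tumors, sums of pigment cell markers (42.8 to 865 against 1.25 to 219 CPM), proliferation markers (418 to 1940 against 340 to 536) and proximal tubule markers (276 to 733 against 633 to 7700) also differed in range. The part of these lists was not tested.

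Between brain and retro-orbital tumors edgeR, fitted to these groups alone, called no member, against 1.73% of 21037 genes (0.395% higher and 1.34% lower). Becn1, Atg2b, Vmp1 and Atg12 had an unadjusted p under 0.05, all higher in brain tumors, and DESeq2 called Atg12, Becn1 and Atg2b, with 12.7% of all genes. With all groups in 1 fit, edgeR called these and Atg4c higher in brain tumors, with 15.1% of all genes. Atg12 was at 20.7, 22.6 and 27 CPM in brain tumors, all above the retro-orbital ones, with a log2 difference of 1.01 (SE 0.23, adjusted p = 0.0715).

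In the fetal model, dysmorphic kidneys were compared with control kidneys to ask what the fusion changes when it acts from kidney development on. A single member was called, where 2.67% of 22690 genes were called, 2.4% higher and 0.269% lower. Atg9b, a paralog of the ATG9 lipid scramblase, was at 3.86, 8.40, 8.41, 19.6 and 5.67 CPM in the dysmorphic kidneys and at 1.72, 1.15 and 0.836 CPM in controls. The groups did not overlap, and the log2 difference was 2.84 (SE 0.58, adjusted p = 0.0468). It was not called with all adult and fetal groups in 1 fit (adjusted p = 0.136) or with sex or the title prefix of the samples as a covariate, and without dysmorphic fetus 1, 3 or 4 its adjusted p was 0.0931, 0.102 and 0.0791, and without control fetus 1, 2 or 3 it was 0.0996, 0.194 and 0.127. In these 6 leave-out fits edgeR called 0 genes of any kind, and with sex as a covariate 5 of 22690. Atg9b shares 294 exon bases with Nos3 on the opposite strand, and Nos3 itself was at 5.42 to 8.58 CPM in dysmorphic and 5.68 to 7.59 in control kidneys. Skeletal muscle markers were higher in every dysmorphic kidney, as given above. Macrophage markers summed to 267 to 540 CPM in dysmorphic and 145 to 181 in control kidneys, and pigment cell markers to 29.6 to 51.3 and 5.74 to 6.40 CPM. The part of these lists, or of the bases shared with Nos3, in the Atg9b level was not tested.

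None of the members high in kidney tumors was called in the fetal kidneys. Gpnmb was at 15.2 to 560 CPM in dysmorphic and 0.447 to 6.35 in control fetal kidneys, against 2940 to 7220 in kidney tumors. Whether this bears on the levels of the members was not tested. Optn was at 14.4, 44.3, 8.19, 5.85 and 32.5 CPM in dysmorphic kidneys and at 11.1, 26.6 and 30.7 in controls, with a log2 difference of -0.16 (adjusted p = 0.924). Sqstm1 (0.17), Uvrag (0.09), Atg7 (-0.09), Gabarapl2 (-0.20), Ulk1 (0.12), Gabarap (-0.21) and Vmp1 (-0.93, adjusted p = 0.276) were not called either, and none of the 8 had an unadjusted p under 0.05. No member was called lower in the fit of the fetal groups, 2 members (Becn1 and Tax1bp1) had an unadjusted p under 0.05 in that direction, and DESeq2 called both. With all groups in 1 fit, edgeR called Tax1bp1 lower (-0.63, adjusted p = 0.0156). Tax1bp1 was at 221 to 308 CPM in dysmorphic kidneys and 286 to 481 in controls, with a log2 difference of -0.66 (SE 0.18, adjusted p = 0.0893). Wipi1 was at 48.1 to 68.9 CPM in dysmorphic kidneys, above all controls (33.2 to 41.5), with a log2 difference of 0.63 (SE 0.16, adjusted p = 0.0798), and DESeq2, which called 9.95% of all genes, and edgeR without dysmorphic fetus 5 (5.12%) called it higher.

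The difference between the models was tested directly, as the kidney tumor minus control difference less the dysmorphic minus control difference. In the edgeR fit of these groups it was positive and called for 7 members and negative and called for none. Of 24444 genes, 8.94% were called in all, 6.87% positive and 2.07% negative. The members were Optn (4.26, SE 0.85, adjusted p = 0.0061), Atg7 (2.26, SE 0.57, adjusted p = 0.0238), Vmp1 (2.01, SE 0.57, adjusted p = 0.041), Gabarapl2 (1.69, SE 0.41, adjusted p = 0.0192), Sqstm1 (1.54, SE 0.39, adjusted p = 0.0234), Uvrag (1.44, SE 0.35, adjusted p = 0.0196) and Gabarap (0.97, SE 0.28, adjusted p = 0.0438). The median was -0.02 over the members and 0.16 over all genes. Relative log expression scaling, which moved that median to 0.07, called 6 positive (Gabarap was lost) and 2 negative (Ulk2 and Nbr1). Nbr1 was also called negative with upper quartile factors, halved counts, sex as a covariate, DESeq2 and without the kidney tumors of mice 4 and 5. Halved counts and DESeq2 called Ulk2 negative too, and DESeq2 Atg4a. In the order given, these fits called 8.28%, 8.11%, 10.1%, 10.4%, 13.5% and 17.5% of all genes. Among the members, 4 had a negative difference with an unadjusted p under 0.05. Age, Cre driver, count table and kind of tissue also differ between the models and cannot be told apart from one another.

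Optn kept its call for the difference between models under every alternative and with any animal left out. Without adult control mouse 2 or 3 it was the one member called. Without control mouse 1 Optn, Gabarapl2 and Uvrag were called, and without control fetus 2 Optn, Sqstm1, Atg7 and Gabarapl2. Without control fetus 3 Optn and Uvrag were called positive and Nbr1 negative. The share of all genes called fell as well, from 8.94% to 3.79% and 4.08% without control mice 2 and 3, 5.33% without control mouse 1, 4.72% without control fetus 3 and 4.66% without control fetus 2. Without control mouse 3 the adjusted p was 0.0658 for Atg7, 0.109 for Vmp1, 0.0603 for Gabarapl2, 0.0705 for Sqstm1, 0.0591 for Uvrag and 0.118 for Gabarap.

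Other genes of the pathway, beyond the 38, were read from a list of 44 (fusion and maturation factors, regulators, further receptors and the MiT/TFE factors), of which 43 could be tested. In kidney tumors against control kidneys 4 were higher and 6 lower, where 12.5% of all genes were higher and 6.51% lower. Tecpr1, a tether of autophagosomes and lysosomes, was at a mean of 154 ± 57.8 CPM (SD, n = 6) against 18.9 ± 1.81 (SD, n = 3), a log2 difference of 3.04 (SE 0.38, adjusted p = 0.00123). Plekhm1, an adaptor for the fusion of autophagosomes with lysosomes, was at 161 ± 89.0 against 45.6 ± 2.69, a log2 difference of 1.84 (SE 0.50, adjusted p = 0.033). Stbd1 (1.13) and Vps39 (0.71) were the other higher genes. Tfec (-1.49), Mitf (-1.05), Ncoa4 (-0.97), Pink1 (-0.77), Wdfy3 (-0.75) and Sec62 (-0.54) were lower. Tfe3 (0.31, adjusted p = 0.353) and Tfeb (-0.66, adjusted p = 0.0707) were not called.

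The same list held 6 higher and 6 lower genes in kidney tumors against non-transformed kidneys, where 12.1% of all genes were higher and 5.02% lower. In retro-orbital tumors against kidney tumors it held 8 lower, with 19 at an unadjusted p under 0.05, and 0 higher, with 1 at such a p, where 9.45% of all genes were lower and 8.26% higher. Plekhm1, at a mean of 32.8 CPM in retro-orbital tumors, was among those 8 (-2.33, SE 0.46, adjusted p = 0.00811), and it was the one gene of the list called between brain tumors (mean 132 CPM) and retro-orbital tumors (2.03, SE 0.33, adjusted p = 0.0352). Between the fetal groups edgeR called none of the 43, with 8 at an unadjusted p under 0.05, and between non-transformed and control kidneys none, with 7.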

How the data were processed

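RNA-seq of 36 formalin-fixed mouse libraries from 17 animals was analysed from 2 tables of raw counts per gene, deposited by the authors for adult and fetal samples. Per the labels, total RNA was prepared with a stranded kit without ribosomal RNA depletion, and the submitters' processing notes name FastQC, MultiQC, Bowtie2, STAR 2.5.2a and GRCm38 (mm10). The counting tool, its annotation and its strand setting are not given in the sources used here. Between 79.04% and 84.33% of counts from 1 to 20 were even, so halved counts were an alternative. Of 53379 gene IDs, 53274 matched GENCODE M21 for symbols, positions and exon lengths.

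Libraries of 1 animal and group were summed. Only the compared groups entered each fit in edgeR 4.0.16 (R 4.3.3: filterByExpr, TMM scaling, quasi-likelihood F-test), Benjamini-Hochberg adjustment ran over all genes tested, and genes were called at adjusted p under 0.05. The SE is the absolute log2 fold change over the square root of F. The script was tested on simulated data. Nothing says that fetuses came from separate litters. Titles of dysmorphic fetuses 1 to 3 and control fetuses 1 and 2 share the prefix H0248. Those of dysmorphic fetuses 4 and 5 and control fetus 3 share M1833. The depth, 80205573 to 121415057 counts per library, sets a floor of 3 counts, which covers counting error only. All 38 members were to be named, those called with every animal. The members and lists were chosen with earlier results of these data known.

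Alternatives were DESeq2 1.42.0, limma-voom 3.58.1 on libraries with animal as a random block, other scaling, no filter, 1 fit of all groups, sex or title prefix as a covariate, the mouse as a block, and each animal left out. Leaving out a fusion mouse removed all its libraries in the comparison. Same-numbered tumors and kidneys are the same animal, so the numbers pair them. Their deviations from the group means correlated at 0.019 to 0.149 (kidney tumor and non-transformed kidney), 0.112 to 0.234 (kidney and retro-orbital tumor) and -0.047 to -0.017 (kidney and brain tumor).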

Additional observations from a re-analysis of the deposited data

Results flagged for a closer look

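Of 84 checks of a highest or lowest animal within a group of 4 to 6, 3 stood apart from the rest of their group by Dixon's ratio, where chance gives about 4.2. Atg9b was at 19.6 CPM in dysmorphic fetal kidney 4, with the next at 8.41. Atg4a was at 66.9 CPM in the kidney tumor of mouse 2, with the next at 55.2. Atg7 was at 43.3 CPM in the retro-orbital tumor of mouse 6, with the next at 54.0. The other group of results singled out was the effect of the fusion that differed between the adult and the fetal model by the test of the difference itself. On the log2 scale it was 4.26 for Optn, 2.26 for Atg7, 2.01 for Vmp1, 1.69 for Gabarapl2, 1.54 for Sqstm1, 1.44 for Uvrag and 0.97 for Gabarap, larger in kidney tumors in each case.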

How the results depend on the processing

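None of the members called changed direction under the alternatives of the comparison that called it. Counts of members called moved by over 1.5 times in these cases. For kidney tumors against control kidneys (12), leaving out 1 animal gave 2 to 12. Against non-transformed kidneys (11), limma-voom gave 17, the mouse as a block 3, and leaving out 1 mouse 4 to 11. For retro-orbital against kidney tumors (9), the block gave 3, leaving out the kidney tumors of mice 4 and 5 gave 5, and leaving out 1 mouse 2 to 9. For brain against kidney tumors (1), DESeq2 gave 5, no filter on low counts 0, all groups in 1 fit 8, limma-voom 4, the block 0 and leaving out 1 mouse 0 in each case. For brain against retro-orbital tumors (0), DESeq2 gave 3, 1 fit of all groups 4 and leaving out 1 mouse 0. For the fetal kidneys (1), DESeq2 gave 4, 1 fit of all groups 1 (Tax1bp1, not Atg9b), sex as a covariate 0, title prefix as a covariate 0 and leaving out 1 fetus 0 to 2, in fits that called 0 genes of any kind in 6 of 8 cases. For the difference between models (7), DESeq2 gave 11, with Ulk2, Nbr1 and Atg4a negative. Leaving out 1 animal gave 1 to 9, with Ulk2 or Nbr1 negative in some. Non-transformed against control kidneys stayed at 0 under all alternatives run. The fits that left out the kidney tumors of mice 4 and 5, or the brain tumor of mouse 2, were chosen after seeing the data. Fewer samples enter the block and the leave-out fits, and the cause of the other shifts was not tested. For retro-orbital against kidney tumors, Atg12 and Atg5 were lost with RLE factors or sex as a covariate, Atg12, Atg5 and Becn1 with upper quartile factors, no filter or halved counts, and Atg4c with all groups in 1 fit. Against non-transformed kidneys, no filter lost Nbr1, Rb1cc1 and Wipi1, and between models it lost Vmp1 and Gabarap. For single called members, 540 values kept their call and 197 lost it with the direction kept. No block could be fitted between brain and retro-orbital tumors, which share mouse 2 alone, and limma-voom with an animal block was not run there or on the fetal kidneys, which gave 1 library each. Depth limits Atg9b in adult tissue. Groups were small and the tumors of a group varied, and the part of either in limiting the other results was not tested.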
